A study of Mus musculus with 6 samples.

Results

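Cytosolic and mitochondrial chaperones and their co-chaperones, 78 genes in all, were examined in aortic smooth muscle cells of miR-21 knockout and wild-type mice. They were chosen by name from the 14195 protein-coding genes among the 20199 genes of the table, as the HSPA, HSPB, HSPD1, HSPE1, HSPH1 and HSP90A families, the J-domain families DNAJA, DNAJB and DNAJC, the BAG family, the TRiC chaperonin, the heat shock factors, Stip1, Ahsa1 and Ahsa2. Hspa5, Hspa13, Dnajb9, Dnajb11 and Dnajc3, which belong to the endoplasmic reticulum, were left out by the rule. The rule uses gene names and gene type alone. Cct6a, a TRiC subunit gene, was marked as a processed transcript in the table and is therefore not a member.

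The study sequenced messenger RNA of smooth muscle cells from the aorta of C57B6 mice 12 weeks old. The 3 knockout libraries, labelled miR21 -/-, came from mice of genotype miR-21fl/flmTmG/Myh11ERT2. The 3 wild-type libraries, labelled control, came from mice of genotype WT/mTmG/ Myh11ERT2. Both groups therefore carried the reporter allele mTmG, which changes colour after Cre acts, and Myh11ERT2, an inducible Cre under the smooth muscle myosin heavy chain gene, so that deletion would be limited to cells that use that promoter. The sources used here state neither whether the Cre was induced nor whether each library is a separate animal, so p-values measure only how these libraries spread, which may be technical. The level of miR-21 itself was not analysed here, so the knockout was not checked by the deleted gene.

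HSP70 proteins bind exposed hydrophobic stretches of unfolded proteins in a cycle of ATP hydrolysis. J-domain proteins deliver clients to HSP70 and start the hydrolysis, and HSP110 and BAG proteins release the nucleotide again. HSP90 takes over partly folded clients from HSP70 through the adaptor Stip1, and Ahsa1 speeds its ATPase. Small heat shock proteins hold unfolding proteins without ATP, and in muscle they protect the cytoskeleton. The TRiC chaperonin folds actin and tubulin, and HSP60 with its lid HSP10 folds proteins inside mitochondria. Under heat or other protein damage the heat shock factor HSF1 forms trimers, binds heat shock elements made of inverted GAA units and drives transcription of many of these genes.

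The promoter windows of 6 members are shown because the genes furthest below wild type include several that HSF1 is known to drive, and because the windows differ in whether they hold pairs of such units. Sequences are from RefSeq on GRCm38.p6 (mm10), from 250 bases before to 50 after an annotated start. Capitals mark every match to TTCNNGAA or GAANNTTC, the tail-to-tail and head-to-head pairs of GAA units. Each motif is its own reverse complement, so a match lies on both strands, and overlapping matches run together in 1 stretch of capitals. Hsph1 (chr5:149636287-149636586, minus strand), Hspe1 (chr1:55087898-55088197, plus strand), Hspb1 (chr5:135887669-135887968, plus strand), Hspa1b (chr17:34959189-34959488, minus strand), Hspa1a (chr17:34972107-34972406, minus strand) and Stip1 (chr19:7039977-7040276, minus strand) read 5′ to 3′ as follows.
Hsph1: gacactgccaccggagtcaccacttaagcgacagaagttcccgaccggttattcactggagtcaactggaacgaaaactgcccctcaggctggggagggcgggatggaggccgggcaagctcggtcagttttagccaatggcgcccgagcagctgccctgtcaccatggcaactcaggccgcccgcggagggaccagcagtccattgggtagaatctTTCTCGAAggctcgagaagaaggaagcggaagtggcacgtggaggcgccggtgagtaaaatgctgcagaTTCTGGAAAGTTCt
Hspe1: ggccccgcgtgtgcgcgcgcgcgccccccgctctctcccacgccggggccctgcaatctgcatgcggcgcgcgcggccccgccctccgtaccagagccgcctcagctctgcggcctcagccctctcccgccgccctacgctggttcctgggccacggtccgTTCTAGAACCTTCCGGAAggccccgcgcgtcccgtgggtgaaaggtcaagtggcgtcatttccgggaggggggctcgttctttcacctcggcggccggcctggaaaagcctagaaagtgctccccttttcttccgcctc
Hspb1: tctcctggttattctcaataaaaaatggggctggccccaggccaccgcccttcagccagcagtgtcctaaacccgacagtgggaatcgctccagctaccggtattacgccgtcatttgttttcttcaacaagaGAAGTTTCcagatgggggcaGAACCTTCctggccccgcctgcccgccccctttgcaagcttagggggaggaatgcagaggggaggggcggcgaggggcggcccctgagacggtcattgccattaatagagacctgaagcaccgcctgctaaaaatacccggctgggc
Hspa1b: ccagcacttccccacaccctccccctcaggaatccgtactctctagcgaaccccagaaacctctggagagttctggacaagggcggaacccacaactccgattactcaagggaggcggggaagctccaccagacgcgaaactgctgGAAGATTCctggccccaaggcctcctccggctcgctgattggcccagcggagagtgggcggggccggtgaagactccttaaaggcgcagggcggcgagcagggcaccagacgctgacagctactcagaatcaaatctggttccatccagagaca
Hspa1a: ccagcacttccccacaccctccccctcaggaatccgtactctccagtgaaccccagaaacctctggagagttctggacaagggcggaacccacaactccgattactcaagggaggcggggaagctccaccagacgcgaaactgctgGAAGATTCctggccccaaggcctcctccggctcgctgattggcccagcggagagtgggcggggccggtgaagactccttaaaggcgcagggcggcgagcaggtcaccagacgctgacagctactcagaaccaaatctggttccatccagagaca
Stip1: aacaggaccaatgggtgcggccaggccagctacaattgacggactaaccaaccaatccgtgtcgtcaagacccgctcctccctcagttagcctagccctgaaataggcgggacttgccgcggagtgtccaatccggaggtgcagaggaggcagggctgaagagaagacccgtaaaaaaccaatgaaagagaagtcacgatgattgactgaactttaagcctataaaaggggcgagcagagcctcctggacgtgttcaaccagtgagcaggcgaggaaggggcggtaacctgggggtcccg

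In these windows Hsph1 held 3 matches, the first bases of which lay at −33, 36 and 41 from the start, and Hspe1 held 3 at −89, −84 and −79. Both therefore contained a run of at least 3 alternating units, in which a TTCNNGAA and a GAANNTTC share a unit. In Hspe1 all 3 matches overlap, so its run is 1 unit longer than that of Hsph1. Hspb1 held 2 matches, at −117 and −97, and Hspa1a and Hspa1b held 1 each at −104. The Hspa1a and Hspa1b windows differed at 4 of 300 bases (98.7% identical). The Stip1 window held no match.

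The libraries held between 17216701 and 27568002 counts in knockout and between 17123748 and 28610649 counts in wild type. Wild-type replicate 1 stood apart: the first principal component of log2 CPM, with 40.6% of the variance, placed it at −58.1 and the other 5 libraries between 1.53 and 27.3. Smooth muscle markers were abundant in all libraries, with 8 markers summing to 43649, 44707 and 44731 CPM (counts relative to library size, scaled by TMM factors) in knockout and 48373, 48608 and 42246 CPM in wild type. The 8 adventitial fibroblast markers summed to 159.9, 170.1 and 77.3 CPM in knockout and 131, 131 and 133 CPM in wild type. Endothelial markers summed to between 86.2 and 92.2 CPM in knockout and between 88.8 and 93.9 CPM in wild type, and the 7 macrophage markers analysed summed to between 2.505 and 9.07 CPM in knockout and between 4.76 and 9.80 CPM in wild type.

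Chaperone genes took 0.698%, 0.777% and 0.715% of all counts in knockout replicates 1 to 3, against 1.17%, 0.843% and 1.01% in wild-type replicates 1 to 3. The groups did not overlap, and wild-type replicate 2 was nearest to the knockout libraries. In bulk RNA, fewer cells of a type and less RNA per cell cannot be told apart. Of the 78 members 75 were abundant enough to be tested, and Dnajb3, Hsf5 and Cct6b were not. Fitted means were lower in knockout for 53 members and higher for 22, where 50.1% of all genes tested were lower.

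At an unadjusted edgeR p under 0.05, 22 of the 75 members were lower in knockout and 0 were higher. Over all genes tested the same criterion held for 3.44% (lower) and 2.85% (higher). In 26 members the knockout libraries all lay below the wild-type libraries, against 7.57% of all genes, and in 1 member, Dnajc12, they all lay above, against 6.95%. Counts that were not whole in every library, as estimated counts of shared reads can be, were present in 21 of the 22 lower members and in 53 of the 78 members. The median log2 fold change, knockout over wild type, was −0.16 for the members and −0.00078 for all genes. With 1 library left out, the members lower at an unadjusted p under 0.05 numbered 14 without knockout replicate 1 (2.31% of all genes), 20 without knockout replicate 2 (2.47%) and 14 without knockout replicate 3 (2.24%). They numbered 22 without wild-type replicate 1 (3.77%), 21 without wild-type replicate 2 (3.61%) and 22 without wild-type replicate 3 (4.15%). Under library totals in place of TMM factors, which moved the median of all genes to 0.04, 51 members had a lower fitted mean. There, 18 members were lower at an unadjusted p under 0.05, against 2.48% of all genes, and 21 lay below wild type without overlap, against 5.22%.

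No member passed edgeR's quasi-likelihood test after Benjamini-Hochberg adjustment over 15185 genes, where 0% of all genes were called. The smallest adjusted p among members was 0.413, for Hspa8. limma voom called 0 members as well, with 20 lower and 0 higher at an unadjusted p under 0.05. Over all 15185 genes tested, its counts at that level were 523 lower and 467 higher. DESeq2, run as an alternative, called 6 members lower and 0 higher, against 0.356% and 0.116% of the genes it adjusted. Those 6 were Hspa8 (adjusted p = 9.51e-04), Hsph1 (0.00404), Ahsa2 (0.0140), Dnajb2 (0.0196), Hspb1 (0.0198) and Stip1 (0.0223).

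The DESeq2 calls depended on single libraries, and every call of a member with 1 library left out was lower in knockout. Without wild-type replicate 2, 11 members were called, where 0.397% of the genes it adjusted were called lower. These were the 6 and also Ahsa1 (DESeq2 adjusted p = 0.0212), Hsp90aa1 (1.74e-04), Hsp90ab1 (5.69e-06), Hspd1 (4.52e-04) and Hspe1 (9.00e-05). Without wild-type replicate 1, 6 members were called (0.378% of all genes): Cct3 (0.00346) and Hspa1b (0.0157) were added, and the calls of Hsph1 (0.300) and Hspb1 (0.571) ended. Without wild-type replicate 3, Hspa8 alone was still called (0.0429; 0.122% of all genes). Without knockout replicate 1, where 0.272% of all genes were called, Ahsa2 (0.185), Dnajb2 (0.338), Hspb1 (0.238) and Stip1 (0.191) were no longer called. Without knockout replicate 2 the calls of Dnajb2 (0.216) and Stip1 (0.210) ended (0.13% of all genes). No member was called without knockout replicate 3 (0.0516% of all genes), where the adjusted p-values of the 6 ran from 0.153 for Hspa8 to 0.525 for Dnajb2.

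**Figure D1:**
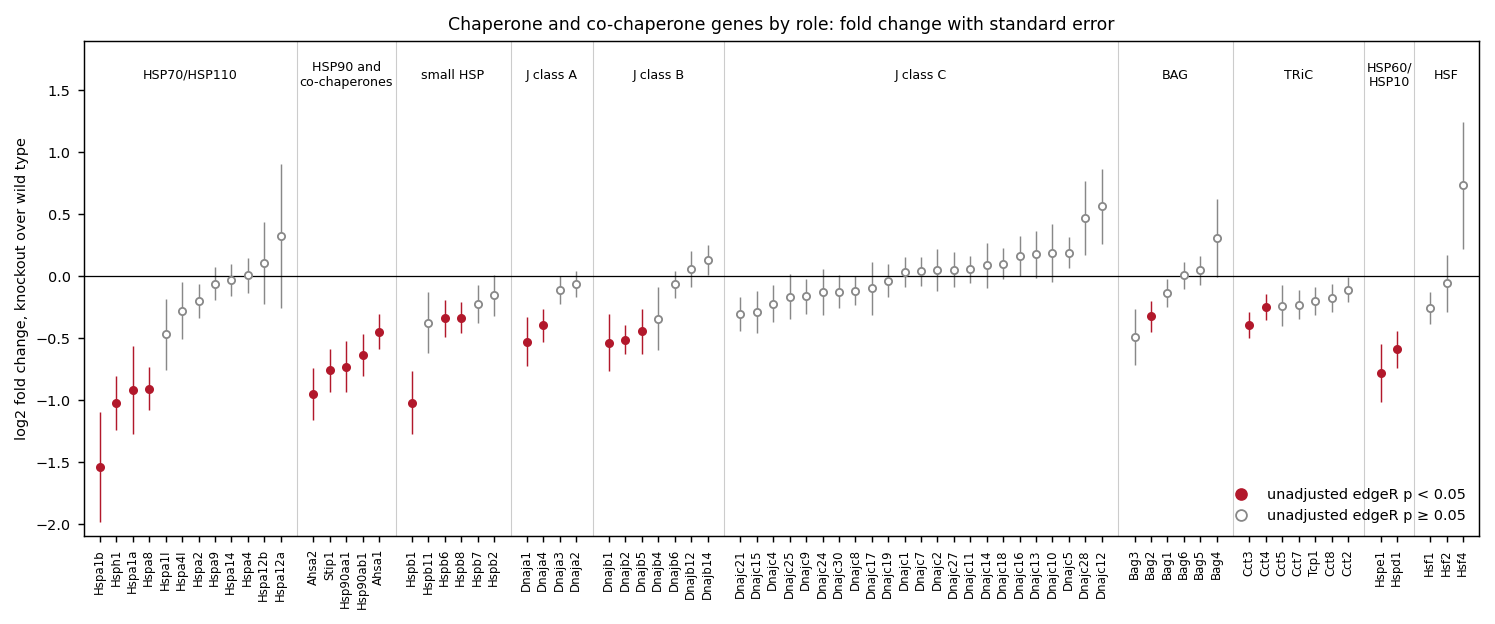
Log2 fold change, knockout over wild type, of the 75 tested members, grouped by role along the horizontal axis; points are edgeR estimates, lines their standard errors, and filled red points have an unadjusted p under 0.05. All 22 filled points lie below 0, all 5 HSP90 genes and both HSP60/HSP10 genes are filled, and none of the 23 class C J-domain genes is.

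Among the HSP70 and HSP110 genes, 9 of 12 had a lower fitted mean in knockout (50.1% of all genes tested). The median log2 fold change of the 12 was −0.24, and 4 were lower at an unadjusted p under 0.05 (3.44% of all genes tested). Hspa8 (chr9:40800984-40810087), the constitutive HSP70 of the cytosol, was at 457, 617 and 456 CPM in knockout replicates 1 to 3, against 1010.2, 774 and 1084 CPM in wild-type replicates 1 to 3. Each knockout library lay below each wild-type library, and knockout replicate 2 was the highest of its group while wild-type replicate 2 was the lowest of the other. The log2 fold change was −0.91 ± 0.18 (SE), and it lay between −1.07 and −0.81 when any library was left out. A 2-sided exact permutation test of log2 CPM gave p = 0.1 for this gene, which is the smallest value that 3 against 3 libraries allow.

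Hsph1 (chr5:149614287-149636376), an HSP110 that acts as nucleotide exchange factor of HSP70, was at 121, 126 and 94.3 CPM in knockout, against 243, 160.3 and 291 CPM in wild type. The groups did not overlap, and wild-type replicate 3 was the highest library. The log2 fold change was −1.02 ± 0.22, with an edgeR adjusted p of 0.489. Its relatives Hspa4 (0.01 ± 0.14) and Hspa4l (−0.28 ± 0.23) did not pass, and Hspa4 averaged 117 ± 8.84 CPM in knockout and 117 ± 19.0 CPM in wild type (SD, n = 3 each).

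The stress-inducible HSP70 genes Hspa1a and Hspa1b encode nearly the same protein from neighbouring loci on chromosome 17, so reads between them are split with uncertainty. Hspa1b was at 175, 282 and 215 CPM in knockout, against 1217, 352 and 384 CPM in wild type. Hspa1a was at 246, 481 and 367 CPM in knockout, against 1105, 434 and 531 CPM in wild type. Wild-type replicate 1 had the highest level of both genes by a wide margin; the groups did not overlap for Hspa1b, while knockout replicate 2 exceeded wild-type replicate 2 for Hspa1a. The log2 fold changes were −1.54 ± 0.44 for Hspa1b and −0.92 ± 0.35 for Hspa1a, and without wild-type replicate 1 they were −0.72 and −0.40.

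Summed, which avoids the split, the pair reached 421, 764 and 582 CPM in knockout, against 2322, 786 and 916 CPM in wild type. The groups did not overlap, though knockout replicate 2 and wild-type replicate 2 were close, and the exact permutation test gave its minimum of p = 0.1. The ratio of Hspa1b to Hspa1a was 0.713, 0.586 and 0.585 in knockout, against 1.10, 0.812 and 0.723 in wild type (exact permutation p = 0.1). Thus the estimated Hspa1b share of the pair was lower in every knockout library than in every wild-type library. Knockout replicate 1 and wild-type replicate 3 were nearest to each other. Unlike the sum, this share rests on the uncertain split of reads. Hspa1l, their neighbour on the opposite strand, averaged 8.21 ± 2.54 CPM in knockout and 11.4 ± 4.04 CPM in wild type.

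None of the other HSP70 genes was below an unadjusted edgeR p of 0.05. Hspa9, the HSP70 of mitochondria, averaged 148 ± 5.29 CPM in knockout and 155 ± 23.1 CPM in wild type (log2 fold change −0.06 ± 0.13). Hspa2 was at −0.20 ± 0.13 and Hspa14, which acts at the ribosome, at −0.03 ± 0.13. Hspa12a (0.32 ± 0.58) and Hspa12b (0.10 ± 0.33), divergent members of the family, were sparse, with a mean of at most 1.88 CPM in either group.

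All 5 genes of HSP90 and its listed co-chaperones were lower in knockout at an unadjusted p under 0.05 (3.44% of all genes tested). In all 5 the knockout libraries lay below the wild-type libraries without overlap (7.57% of all genes tested). Their median log2 fold change was −0.73. All 5 stayed lower at that level when any library was left out, against 2.24% to 4.15% of all genes. Hsp90ab1, the constitutive HSP90, was at 603, 621 and 618 CPM in knockout, against 1037, 719 and 1106 CPM in wild type. The knockout libraries were nearly alike, and wild-type replicate 2 stood closest to them (log2 fold change −0.64 ± 0.17, edgeR adjusted p = 0.561).

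Hsp90aa1, the stress-inducible HSP90, was at 202, 263 and 239 CPM in knockout, against 487, 274 and 406 CPM in wild type. The gap between the groups was narrow, between knockout replicate 2 and wild-type replicate 2 (−0.73 ± 0.21, edgeR adjusted p = 0.625). The ratio of Hsp90aa1 to Hsp90ab1 averaged 0.381 ± 0.0442 in knockout and 0.406 ± 0.0556 in wild type (SD, n = 3 each; 2-sided exact permutation p = 0.7, where 3 libraries against 3 cannot go below 0.1). The ratios of the groups overlapped.

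Stip1, which hands clients from HSP70 to HSP90, was at 96.8, 100.001 and 96.9 CPM in knockout, against 163, 126 and 209 CPM in wild type (−0.76 ± 0.17). Ahsa1, the activator of the HSP90 ATPase, was at 73.9, 71.6 and 78.0 CPM in knockout, against 112, 81.8 and 111 CPM in wild type (−0.45 ± 0.14). Its relative Ahsa2 was at 24.4, 33.1 and 27.3 CPM in knockout, against 67.3, 37.9 and 59.0 CPM in wild type (−0.95 ± 0.21). In all 3 genes wild-type replicate 2 was the lowest library of its group and still above all knockout libraries.

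**Figure D2:**
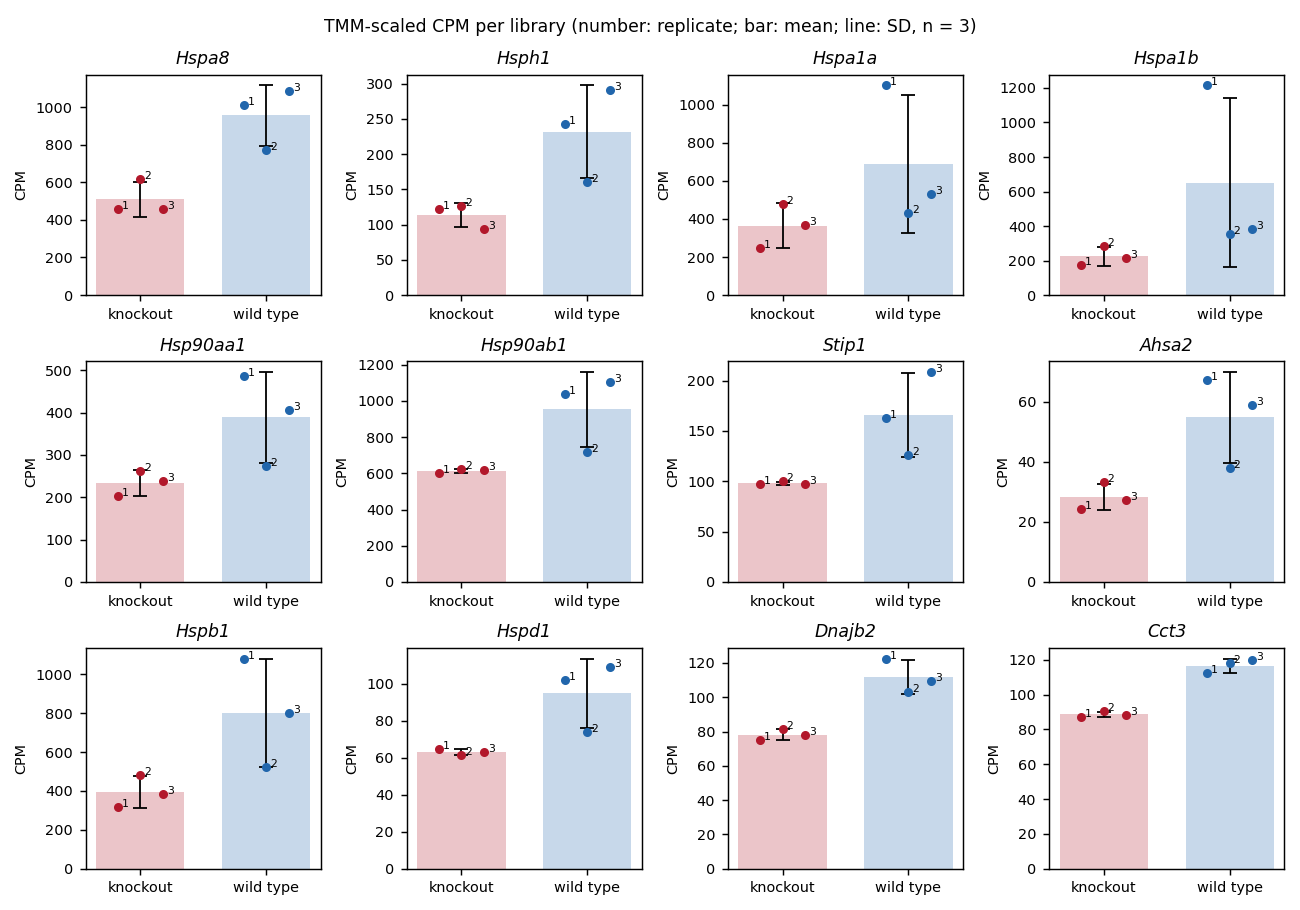
TMM-scaled CPM of 12 members in each library, knockout left and wild type right; points are libraries numbered by replicate, bars the group means and lines the SD (n = 3). Hsp90ab1 was at 603 to 621 CPM in the knockout libraries and 719 to 1106 CPM in the wild-type libraries, and Hspa1b and Hspa1a show the high wild-type replicate 1 at 1217 and 1105 CPM.

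All 6 small heat shock protein genes had a lower fitted mean in knockout (median log2 fold change −0.34), against 50.1% of all genes tested. At an unadjusted p under 0.05, 3 were lower (3.44% of all genes tested). Hspb1, which binds unfolding proteins and actin filaments, was at 319.9, 484 and 382 CPM in knockout, against 1079, 523 and 803 CPM in wild type. The groups did not overlap, with knockout replicate 2 and wild-type replicate 2 closest. Its log2 fold change of −1.02 ± 0.26 shrank to −0.75 with wild-type replicate 1 left out.

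Hspb6, a small heat shock protein of muscle linked to smooth muscle relaxation, was at 367, 363 and 356 CPM in knockout, against 559, 428 and 388 CPM in wild type. The groups did not overlap, but the log2 fold change of −0.34 ± 0.15 became −0.17 when wild-type replicate 1 was left out. Hspb8, the partner of Bag3 in clearing damaged proteins, was at 105.6, 107 and 115 CPM in knockout, against 157, 124 and 132 CPM in wild type (−0.33 ± 0.13). Hspb7, a small heat shock protein of heart and muscle, averaged 503 ± 54.5 CPM in knockout and 587 ± 98.6 CPM in wild type, with overlapping libraries (−0.22 ± 0.15). Hspb2 (−0.15) and Hspb11 (−0.37), which is a subunit of ciliary transport, did not pass.

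Hspb1 was also the most abundant member for its length. Level per kilobase is CPM divided by the merged exon length of the gene, here as the mean of the 6 libraries. Hspb1 was at 580.5 CPM per kilobase, ranging over libraries from 310.3 to 1047. Hsp90ab1 followed at 261 (201 to 369), and then came Hspb7 at 197 (163 to 249), Hspa1a at 180.2 (83.9 to 377), Hspb6 at 178 (155 to 243), Hspa8 at 176 (109.7 to 261) and Hspa1b at 156 (62.5 to 434). Hspb1 was above Hsp90ab1 in 6 of 6 libraries, and Hsp90ab1 was above Hspb7 in 5 of 6. Hspb7 was above Hspa1a in 4 of 6 libraries and Hspa1a above Hspb6 in 3 of 6, while Hspb6 was above Hspa8, and Hspa8 above Hspa1b, in 5 of 6 each. From Hsp90ab1 down, the ranges of neighbours overlap and their order changes between libraries.

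Class A J-domain genes, which serve HSP70 in protein refolding, were lower in fitted mean in 4 of 4 cases (50.1% of all genes tested). Dnaja1 was at 65.3, 84.9 and 70.7 CPM in knockout, against 139.8, 81.0 and 97.9 CPM in wild type. Knockout replicate 2 exceeded wild-type replicate 2, so the groups overlapped (−0.53 ± 0.20, and −0.28 without wild-type replicate 1). Dnaja4 was at 38.5, 38.5 and 38.3 CPM in knockout, against 45.7, 45.9 and 59.9 CPM in wild type (−0.40 ± 0.13), without overlap. Dnaja2 (−0.07 ± 0.10) and Dnaja3, the class A protein of mitochondria (−0.11 ± 0.11), did not pass.

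Of the 7 tested class B J-domain genes, 3 were lower at an unadjusted p under 0.05 (3.44% of all genes tested). Dnajb2, a J-domain protein with ubiquitin-binding motifs, was at 74.97, 81.7 and 78.2 CPM in knockout, against 122, 103 and 109.5 CPM in wild type. The groups lay well apart, with a log2 fold change of −0.51 ± 0.11 (edgeR adjusted p = 0.489) that ranged from −0.56 to −0.44 over the left-out libraries. Dnajb1, the main J-domain partner of inducible HSP70, was at 81.8, 118.5 and 98.0 CPM in knockout, against 193, 103 and 137 CPM in wild type. Here knockout replicate 2 exceeded wild-type replicate 2 (−0.54 ± 0.23, and −0.27 without wild-type replicate 1).

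Dnajb5 was at 134, 132 and 110.3 CPM in knockout, against 221, 143 and 148 CPM in wild type, with no overlap (−0.44 ± 0.18, and −0.22 without wild-type replicate 1). Dnajb4, a J-domain protein close to Dnajb1 in sequence, spread widely in knockout, at 170.1, 296 and 140.2 CPM, against 266, 222 and 279.7 CPM in wild type. Knockout replicate 2 was its highest library of all, and it did not pass (−0.34 ± 0.25). Dnajb6, which keeps aggregating proteins soluble, was at −0.07 ± 0.11, and Dnajb12 and Dnajb14, J-domain proteins of the endoplasmic reticulum membrane, were at 0.06 and 0.13.

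The 23 class C J-domain genes were spread about 0. Class C holds proteins with a J domain and otherwise unlike structures and sites. Fitted means were lower in knockout for 10 and higher for 13, and the median log2 fold change was 0.04. At an unadjusted p under 0.05, 0 were lower and 0 higher, against 3.44% and 2.85% of all genes tested. The fold changes ran from −0.31 (Dnajc21, a ribosome assembly factor) to 0.56 (Dnajc12).

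By level per kilobase, the leading class C genes were Dnajc10, Dnajc8 and Dnajc30. Dnajc10, a disulfide reductase of the endoplasmic reticulum, was at 217, 166 and 180.3 CPM in knockout, against 103, 189.7 and 202 CPM in wild type. Wild-type replicate 1 was far below the other libraries, and the log2 fold change of 0.19 ± 0.24 turned to −0.06 without it. Dnajc8, which is associated with splicing (−0.12 ± 0.12), and Dnajc30, a mitochondrial protein (−0.12 ± 0.13), did not pass. Dnajc12, known to act on the aromatic amino acid hydroxylases, was at 3.02, 1.80 and 2.46 CPM in knockout, against 1.78, 1.32 and 1.78 CPM in wild type, where the closest libraries nearly touched.

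BAG genes were mixed, with 3 lower and 3 higher in fitted mean. Bag2, an inhibitor of the ubiquitin ligase CHIP, was at 37.5, 41.3 and 36.4 CPM in knockout, against 53.3, 47.2 and 43.9 CPM in wild type, without overlap (−0.32 ± 0.12). Bag3, which links HSP70 and small heat shock proteins to autophagy in muscle, was at 64.7, 91.0 and 79.6 CPM in knockout, against 152.8, 86.3 and 91.2 CPM in wild type. Wild-type replicate 1 alone stood above the rest, with log2 fold changes of −0.49 ± 0.23 with it and −0.18 without it. Bag1, a nucleotide exchange factor of HSP70, was at 107, 105 and 108 CPM in knockout, against 128, 112 and 111 CPM in wild type (−0.14 ± 0.11), a small gap that did not pass.

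TRiC is the cytosolic chaperonin of actin and tubulin. All 7 tested subunit genes had a lower fitted mean in knockout (50.1% of all genes tested), and 5 did so without overlap (7.57%). At an unadjusted p under 0.05, 2 were lower (3.44% of all genes tested), and the median log2 fold change was −0.23. Cct3 was at 87.2, 90.4 and 88.3 CPM in knockout, against 112, 117.9 and 119.8 CPM in wild type. Both groups were tight (log2 fold change −0.40 ± 0.10, edgeR adjusted p = 0.561), and the value stayed between −0.42 and −0.38 when any library was left out. Cct4 was at 77.3, 81.2 and 77.5 CPM in knockout, against 86.8, 96.0 and 97.7 CPM in wild type (−0.25 ± 0.11), again without overlap.

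The other subunits had smaller gaps. Cct7 averaged 157 ± 5.14 CPM in knockout and 184 ± 16.5 CPM in wild type (−0.23 ± 0.12), and Tcp1 averaged 175 ± 2.53 CPM in knockout and 201 ± 16.7 CPM in wild type (−0.20 ± 0.11), with SD and n = 3 here and below. Cct8 averaged 116 ± 3.56 CPM in knockout and 131 ± 10.8 CPM in wild type (−0.18 ± 0.11), and Cct2 averaged 57.7 ± 0.664 CPM in knockout and 62.3 ± 2.20 CPM in wild type (−0.11 ± 0.10). Of these 4, only Cct8 had libraries that overlapped between the groups. Cct5, at 105, 86.8 and 106.3 CPM in knockout and 89.8, 125 and 136 CPM in wild type, overlapped because wild-type replicate 1 lay within the knockout range (−0.24 ± 0.17). Wild-type replicate 3 was the highest library for 7 of the 7 subunits, and wild-type replicate 1, the highest library for 30 of the 75 members, was the highest for 0. Without wild-type replicate 1, 6 of the 7 were lower at an unadjusted p under 0.05 (3.77% of all genes). Cct6a, which is no member, was at 126, 118.3 and 128.6 CPM in knockout, against 129.2, 147 and 154 CPM in wild type (−0.21 ± 0.12, edgeR adjusted p = 0.778).

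HSP60 and HSP10, the chaperonin of the mitochondrial matrix and its lid, are encoded by Hspd1 and Hspe1, which lie head to head on chromosome 1. Hspd1 was at 64.5, 61.5 and 62.9 CPM in knockout, against 102, 73.7 and 109 CPM in wild type (−0.59 ± 0.15). Hspe1 was at 19.7, 18.3 and 19.0 CPM in knockout, against 43.0, 20.6 and 34.1 CPM in wild type (−0.78 ± 0.23). In both genes the knockout libraries were nearly equal and wild-type replicate 2 was closest to them, with no overlap. Both stayed lower at an unadjusted p under 0.05 when any library was left out, against 2.24% to 4.15% of all genes.

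The ratio of Hspe1 to Hspd1 was 0.305, 0.297 and 0.301 in knockout, against 0.422, 0.280 and 0.313 in wild type (exact permutation p = 0.7). The deposited spans of the genes overlap at their starts on opposite strands, and the sources used here do not state whether counting used strand, so reads in the overlap cannot be told apart. An annotated Hspd1 promoter window shares 285 bases with the Hspe1 window printed above and holds the same motif run.

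Heat shock factors were at modest levels. Hsf1, the factor that drives the heat shock response, was at 62.7, 70.1 and 68.0 CPM in knockout, against 92.5, 71.7 and 76.1 CPM in wild type. The groups did not overlap by a narrow margin, and the log2 fold change of −0.26 ± 0.13 did not pass (edgeR adjusted p = 0.778). Hsf2 averaged 4.87 ± 1.01 CPM in knockout and 5.11 ± 0.939 CPM in wild type (−0.06 ± 0.23). Hsf4 was near the lower limit of the test, at 0.740, 0.988 and 0.498 CPM in knockout and 0.713, 0.254 and 0.385 CPM in wild type (0.73 ± 0.51).

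**Figure D3:**
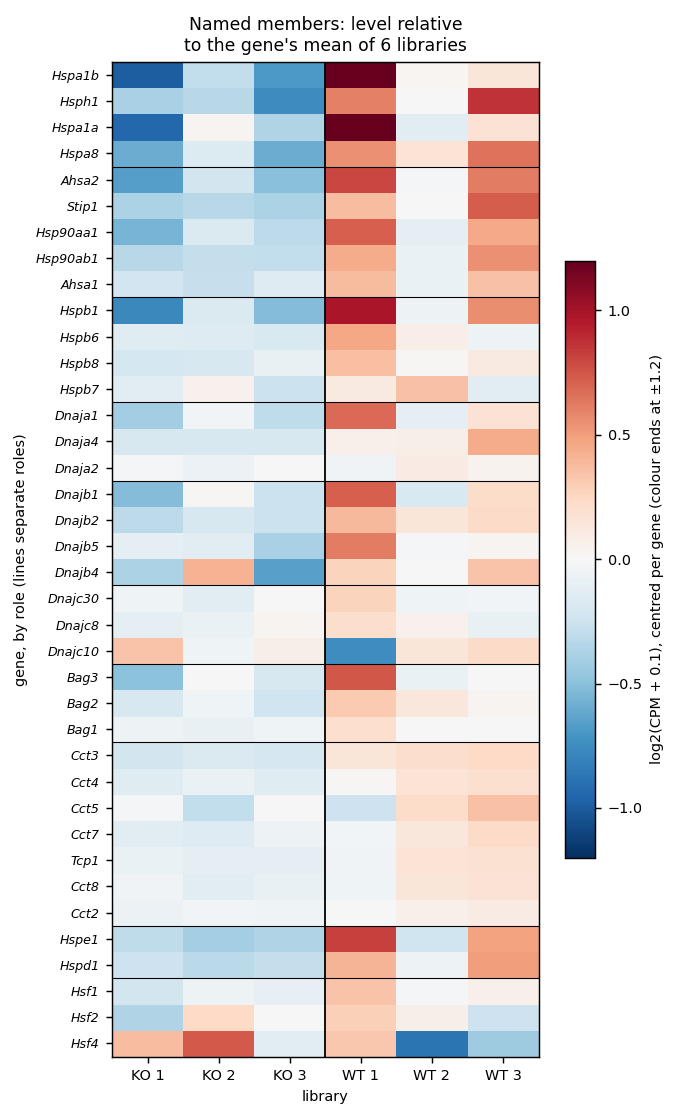
Level of the 38 named members in each library as log2(CPM + 0.1) minus the mean of the gene's 6 libraries; rows are genes in role groups, columns are knockout (left) and wild-type (right) libraries, and colours end at ±1.2. Wild-type replicate 1 is reddest for Hspa1b and Hspa1a, wild-type replicate 3 is the reddest column for the TRiC subunits, and wild-type replicate 2 is near white for most HSP70 and HSP90 genes.

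A list of 23 genes known to be driven by HSF1 under heat stress contains 18 of the members. Of those 18, 17 had a lower fitted mean in knockout, 14 were lower at an unadjusted p under 0.05, and the median log2 fold change was −0.61. Of the 57 tested members outside the list, 36 had a lower fitted mean, 8 were lower at an unadjusted p under 0.05, and the median was −0.11. Over all genes tested, 50.1% had a lower fitted mean and 3.44% were lower at that level. The list was chosen with earlier results of these data known. The fewest listed members at that level were 10 of 18, without knockout replicate 1 (2.31% of all genes). Without wild-type replicate 1 there were 12 (3.77% of all genes), with a median of −0.47.

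Scores by library showed where the listed members lay. A score averages, over the genes of a list, how far log2 CPM in a library lies from the gene's mean of the 6 libraries. The 18 listed members scored −0.43, −0.14 and −0.36 in knockout replicates 1 to 3, against 0.60, −0.05 and 0.39 in wild-type replicates 1 to 3. Wild-type replicate 2 was much nearer to knockout replicate 2 than to the other wild-type libraries. The TRiC subunits scored −0.10, −0.14 and −0.09 in knockout, against −0.03, 0.16 and 0.21 in wild type, so wild-type replicate 1 was the lowest of its group there.

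Immediate early genes, which respond within minutes to handling and dissociation of cells, are given beside these scores because they differed by library as well. Fitted means were lower in knockout for 22 of the 23 genes on that list (50.1% of all genes tested). At an unadjusted p under 0.05, 2 were lower (3.44% of all genes tested). Their score was −0.64, 0.20 and −0.03 in knockout, against 0.38, −0.13 and 0.22 in wild type. Knockout replicate 1 was the lowest library for 22 of the 23. Knockout replicate 2 lay above wild-type replicate 2, as it did for members such as Hspa1a, Dnaja1, Dnajb1, Bag3, Dnajb4, Hspa1l, Hspa4l and Hspb2. Members such as Hspa8, Hsph1, Hsp90ab1 and Hspb1 were lower in knockout replicate 2 than in wild-type replicate 2. The 18 members on the HSF1 list scored −0.14 in knockout replicate 2 and −0.05 in wild-type replicate 2. Within each group these 18 members and the immediate early genes ranked the libraries alike. In knockout, replicate 2 scored highest and replicate 1 lowest. In wild type, replicate 1 scored highest and replicate 2 lowest. The part of handling in the chaperone values was not tested.

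**Figure D4:**
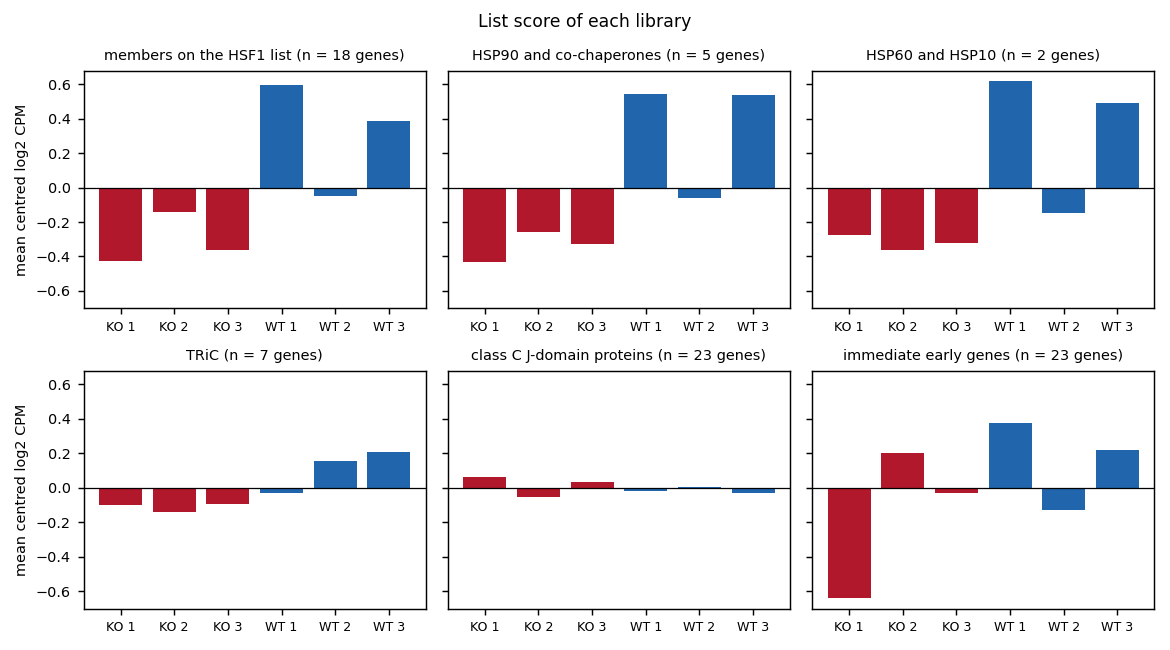
Score of each library for 6 gene lists, as the mean centred log2 CPM of the list's genes; knockout bars are red and stand left of the blue wild-type bars, and 0 is the mean of the 6 libraries. The 18 members on the HSF1 list run from −0.43 in knockout replicate 1 to 0.60 in wild-type replicate 1, the class C J-domain genes stay within 0.06 of 0, and the immediate early genes are lowest in knockout replicate 1 at −0.64.

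The SD of log2 CPM was smaller in knockout for 60 of 75 members, and for 69.2% of all genes tested. Its median over the members was 0.140 in knockout and 0.231 in wild type, and over all genes 0.155 in knockout and 0.249 in wild type. Across all genes, log2 CPM correlated at 0.980 to 0.986 between knockout libraries and at 0.986 between wild-type replicates 2 and 3. It correlated at 0.968 and 0.971 between wild-type replicate 1 and the other wild-type libraries. Genes are not independent replicates. Among the members, the wild-type library that stood apart differed by role. HSP90 and its co-chaperones scored 0.54, −0.06 and 0.54 in wild-type replicates 1 to 3, and the TRiC subunits scored −0.03, 0.16 and 0.21. The highest library was knockout replicate 1 for 9 members (18.1% of all genes), knockout replicate 2 for 5 (14.7%) and knockout replicate 3 for 6 (10.4%), against wild-type replicate 1 for 30 (32.1%), wild-type replicate 2 for 8 (11.8%) and wild-type replicate 3 for 17 (12.9%). The lowest library was knockout replicate 1 for 24 members (18.9% of all genes), knockout replicate 2 for 18 (14.1%) and knockout replicate 3 for 12 (8.72%), against wild-type replicate 1 for 13 (32.4%), wild-type replicate 2 for 5 (12.6%) and wild-type replicate 3 for 3 (13.3%). Among the members, wild-type replicate 1 was most often the highest library and knockout replicate 1 most often the lowest, and these shares were not tested.

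Promoter windows were available for 63 of the 78 members, in 82 windows. A match to TTCNNGAA or GAANNTTC was present in 20 of these 82 windows (24.4%), against 4946 of 32851 windows of all genes (15.1%). For members on the HSF1 list the count was 11 of 21 windows (52.4%), and for the other members 9 of 61 (14.8%). A run of at least 3 units was found in 6 member windows (7.32%), against 0.603% of all windows. These windows belonged to Hsph1, Hspd1, Hspe1 and Dnajb6 alone. An Hspd1 window shares 285 bases with the Hspe1 window, so the windows are not independent. Dnajb6 was near wild-type level (log2 fold change −0.07 ± 0.11). Of the 17 tested members with a match, 10 were lower at an unadjusted p under 0.05, with a median log2 fold change of −0.40. Of the 43 without a match 8 were lower, with a median of −0.14. Over all genes tested the share at that level was 3.44%. The 8 without a match were Ahsa1, Ahsa2, Stip1, Dnajb1, Dnajb2, Dnajb5, Bag2 and Cct3. Matches were more frequent among members on the HSF1 list, so this split is not separate from that list. These matches describe letters in a fixed window and say nothing of binding. Not searched here were Hsf1, Hspa9, Cct4, Dnajc30, Dnajc12, Dnajc11, Hspb2, Bag4, Dnajc5, Hsf4, Hspa8, Hsp90aa1, Dnajc2, Hsp90ab1 and Dnajc18.

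Since the deleted RNA is a microRNA, the 3′ UTRs of the members were searched for its seed sites. The mature strand miR-21a-5p (chr11:86584120-86584141, minus strand, GRCm38.p6) is shown from RefSeq with its seed, bases 2 to 8, in capitals, and below it the 8mer site of Dnaja1, the 1 site of that class among the members, with the match in capitals.
miR-21a-5p: uAGCUUAUcagacugauguuga
Dnaja1 site: agtttatcATAAGCTactgctta

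A 7mer or longer site was present in 9 of the 74 members searched (12.2%), against 1323 of 11009 protein-coding genes (12.0%). The 9 were Dnaja1, Dnaja2, Dnaja4, Dnajb4, Dnajb5, Dnajb14, Dnajc5, Dnajc16 and Hspa4l. Their log2 fold changes ran from −0.53 for Dnaja1 to 0.19 for Dnajc5, and 6 of the 9 were below 0, as were 53 of the 75 tested members. Dnaja1 had 3 sites, as did Dnajc16, which was at 0.16. The median 3′ UTR searched was 804 bases long in the members and 1227 in the protein-coding genes.

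On a list of 33 chaperone and heat shock genes outside the rule, 26 had a lower fitted mean in knockout (50.1% of all genes tested). Under library totals in place of TMM factors 20 did (6600 of 15185 genes tested). At an unadjusted p under 0.05, 6 were lower (3.44% of all genes tested). Cacybp, a protein that binds ubiquitin ligase complexes, was at 45.8, 44.4 and 41.8 CPM in knockout, against 91.4, 61.0 and 84.3 CPM in wild type (−0.84 ± 0.16, edgeR adjusted p = 0.398). Fkbp4, an immunophilin of HSP90 complexes, was at 130.3, 113 and 128.8 CPM in knockout, against 189, 156 and 199 CPM in wild type (−0.55 ± 0.13). Neither gene's groups overlapped, and DESeq2 called both lower (adjusted p = 0.00213 for Cacybp and 0.0452 for Fkbp4). Ptges3, the HSP90 co-chaperone p23, was at 99.9, 106.3 and 105 CPM in knockout, against 143, 124 and 136 CPM in wild type (−0.37 ± 0.11).

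In the endoplasmic reticulum list, 19 of 24 genes had a lower fitted mean (50.1% of all genes tested). Under library totals in place of TMM factors 17 did (6600 of 15185 genes tested). At an unadjusted p under 0.05, 6 were lower (3.44% of all genes tested). The median log2 fold change of the list was −0.11, or −0.07 under library totals. Manf, a secreted protein induced by stress of that organelle, was at 50.7, 57.5 and 54.0 CPM in knockout, against 126, 60.6 and 99.3 CPM in wild type (−0.81 ± 0.23). Creld2, a folding factor of the same compartment, was at 26.8, 30.9 and 35.5 CPM in knockout, against 60.6, 36.1 and 60.4 CPM in wild type (−0.75 ± 0.21). As in Hspe1 and Hsp90aa1, wild-type replicate 2 was the wild-type library nearest to the knockout libraries. Dnajc10 is on this list and is also a member.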

How the data were processed

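RNA of 3 miR-21 knockout and 3 wild-type samples was sequenced. The labels' protocols give Trizol extraction and the Illumina TruSeq RNA kit, and the submitters' processing notes list mm10, STAR 2.6 and DESeq2. The counting tool and any use of strand are not given in these sources. Values deposited per gene are expected counts with no normalisation, as 65.4% lay within 0.01 of a whole number, and they were rounded.

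Genes passing filterByExpr (15185) were scaled with TMM factors and tested with edgeR 4.0.16 (R 4.3.3) by the 2-sided quasi-likelihood test with robust=TRUE, with Benjamini-Hochberg adjustment over all genes and a threshold of 0.05. The SE of a log2 fold change was derived from its F value. DESeq2 1.42.0, limma voom 3.58.1, other scalings and filters, a replicate block and each left-out library were alternatives, and the fits were tested on simulated data. Log2 CPM used a prior count of 2. Exact permutation tests used log2 CPM for single genes and the plain values for ratios and sums.

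The members, the lists, the naming rule and the tests were chosen with earlier results of these data known. Named are members with a mean of at least 1 CPM and an unadjusted p under 0.05, the 3 highest per kilobase in each role, all tested TRiC and HSF genes, and at most 5 genes each of the other chaperone and endoplasmic reticulum lists with an unadjusted p under 0.01. Further members are named after their values were seen to complete their families. The lists are textbook lists of heat shock, endoplasmic reticulum and immediate early genes and of cell type markers. Exon lengths and 3′ UTRs came from GENCODE vM1, matched by symbol with no coordinates. Of 17005 genes matched to RefSeq, the deposited end equalled RefSeq's for 4672 after 1 base was subtracted and for 411 without, so 1 was subtracted.

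Replicate numbers shared between the groups were not used as pairs, since nothing in the labels says that they pair libraries.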

Additional observations from a re-analysis of the deposited data

How the results depend on the processing

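Over the alternatives run, the median log2 fold change of the members stayed between −0.19 and −0.12, and no setting of edgeR or limma voom called a member, while DESeq2 called 6 members and 69 genes. edgeR called 0 to 9 genes when a library was left out, with 9 without wild-type replicate 1 and 1 without wild-type replicate 2. Members lower at an unadjusted p under 0.05 numbered 14 to 22 over the left-out libraries, with 14 without knockout replicate 1 and 14 without knockout replicate 3, and members higher numbered 0 to 1, the 1 being Dnajc12 without knockout replicate 2. Under library totals in place of TMM factors 18 members were lower at that level (2.48% of all genes) and 21 lay apart (5.22%). The 13 members at that level in every setting were Ahsa1, Ahsa2, Cct3, Dnajb2, Hsp90aa1, Hsp90ab1, Hspa1b, Hspa8, Hspb1, Hspd1, Hspe1, Hsph1 and Stip1. Of 43 named genes, the direction turned for Dnajc10 (−0.060 without wild-type replicate 1, with left-out libraries giving −0.060 to 0.36) and for Hsf2 (0.086 without knockout replicate 1 and 0.075 without wild-type replicate 1, with left-out libraries giving −0.21 to 0.086); the cause was not tested. Hsf4 had no value under the filter of 1 CPM in 3 libraries.

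The replicate block gave 0 genes, 0 members called and 15 members lower at an unadjusted p under 0.05, against 2.07% of all genes. Deviations of same-numbered libraries from their group means correlated at −0.27, −0.18 and −0.08. With 3 libraries per group these values constrain each other, so they cannot decide whether the numbers pair libraries. With 3 libraries per group and totals from 17123748 counts, sparse genes such as Hsf4 and Hspa12a carry wide errors, and wild-type replicate 1 sets much of the size of the Hspa1a, Hspa1b and Bag3 differences.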
